A study of Rattus norvegicus with 2 samples.

Results

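The genes described here encode 10 heat shock proteins of the cytosol and the mitochondrion, taken by symbol from a table of urine RNA in which they are 10 of 16484 entries with a number-only gene ID. All 10 were found and all 10 had an FPKM of at least 1 in 1 or both libraries. FPKM counts sequenced fragments for each kilobase of a transcript and corrects for how deeply a library was sequenced, so that levels of genes of different length can be set side by side. Urine RNA was sequenced in 2 libraries, 1 labelled WT and 1 labelled UUO, and the comparison asks which transcripts of urine differ when a kidney scars. UUO is unilateral ureteral obstruction, here by ligation of the right ureter, while the WT rats had the same operation without ligation. Both groups were Sprague Dawley rats labelled as postnatal day 56, with collection 2 weeks after the operation. Urine of both groups was drawn from the ureter through a catheter, and the urine that had gathered behind the ligature was discarded. How many rats gave urine to each library is not given in the sources used here. With 1 library per group there was no replicate check, no test between groups was possible, and every difference below describes these 2 libraries. The assignment of the columns to UUO and WT rests on abbreviated condition names and on the study's published lists, and every direction depends on it.

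Heat shock proteins are chaperones, which hold unfolded or damaged proteins, refold them or pass them on for breakdown. Most are made all the time, and many are made in greater amount when proteins unfold, through the transcription factor Hsf1 and short inverted repeats of GAA (heat shock elements) in their promoters. In the cytosol an Hsp70 protein such as Hspa8 works with J-domain partners that bring it clients and start its ATPase (Dnaja1, Dnajb1) and with an exchange factor that resets it (Hsph1). The Hsp90 proteins Hsp90aa1 and Hsp90ab1 mature kinases and steroid receptors, the small heat shock proteins Hspb1 and Hspb8 keep unfolded proteins soluble, and in mitochondria Hspd1 forms the folding chamber that Hspe1 closes as its lid.

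Promoter windows of RefSeq (assembly GRCr8, 250 bases before to 50 bases after the start site) were found for 9 of the 10 genes. They were searched for 2 adjacent inverted units, GAANNTTC and TTCNNGAA, each of which reads the same on both strands and may overlap the other. At least 1 match was present in 8 of 9 windows, against 15.9% of all 33469 promoter windows of the assembly. A run of 3 units (TTCNNGAA extended by NNTTC, or GAANNTTC extended by NNGAA, each the reverse complement of the other), a motif added after the data were seen, was present in 5 of 9 windows and in 0.798% of all windows. The stretches below show, for 7 of the 8 genes with a match, the match nearest to the start site among those that lie wholly before it, with the matched units in capitals, because the genes that carry them differed in opposite directions in urine. Coordinates are those of GRCr8, and each sequence is given 5′ to 3′ on the strand of its gene.
Dnajb1, chr19:41431142-41431164, minus strand: tcgggaggggcgGAAGGTTCtgg
Dnaja1, chr5:60638211-60638242, plus strand: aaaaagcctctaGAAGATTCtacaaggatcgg
Hspb8, chr12:45837273-45837304, plus strand: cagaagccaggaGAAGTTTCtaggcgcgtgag
Hspb1, chr12:26432391-26432422, minus strand: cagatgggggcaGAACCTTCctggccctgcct
Hsph1, chr12:10427320-10427356, plus strand: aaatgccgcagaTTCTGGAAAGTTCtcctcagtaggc
Hspa8, chr8:50080447-50080483, plus strand: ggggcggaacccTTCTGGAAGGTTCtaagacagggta
Hspe1, chr9:64084256-64084285, plus strand: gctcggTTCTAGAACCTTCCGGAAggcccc
Hspa8, Hspb1 and Hsph1 each have 1 more stretch of matched units further upstream, ending 200, 121 and 97 bases before the start site. That of Hspa8 is itself a run of 3 units, over 13 bases. The 3-unit run of Dnaja1 and a further match of Dnajb1 do not lie wholly before the start site and are not shown. The element of Hspe1 has an 18-base run of units and ends 47 bases before the Hspe1 start site. Hspd1 is transcribed in the opposite direction from the same region, and on its strand the same run ends 224 bases before the start site listed for it. The windows of Hspd1 and Hspe1 overlap, so the counts of 8 and 5 of 9 windows above include this 1 run for both genes. The window of Hsp90ab1 held no match, and Hsp90aa1, for which no window was found, was not searched. These are matches of letters and not measurements of binding.

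Hspb8, Dnaja1, Hspb1 and Hsp90ab1 were more than 2-fold lower in UUO urine than in WT urine, and Dnajb1 was more than 2-fold higher. Hspd1 and Hspe1 were lower by nearly the same factor, and Hsp90aa1 and Hsph1 stood at close to the same FPKM in both libraries. Changes are given as the difference of log2(FPKM + 1), UUO minus WT, which understates the change of low genes, and a gene was counted as different at 1 or more in size (2-fold). By this limit 4 of the 10 were lower and 1 was higher. Among the 9853 number-only genes that reached 1 FPKM in WT or UUO urine, 36.5% were lower and 25.7% were higher, so the share of lower members is near the background. The median of the 10 was -0.90 and that of the 9853 genes -0.51. All 10 had an FPKM of at least 1 in both libraries. The annotated genes for which that holds had a median of -0.81, nearer to that of the members. The members ranged from -3.87 to 1.08. At a limit of 4-fold 2 members were lower and 0 higher, beside 12% and 10.7% of the annotated genes.

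Annotated genes in general had lower FPKM in the UUO library, which bears on all of these directions. The median difference of the 7218 genes with an FPKM of at least 1 in both libraries was -0.81. When UUO values were multiplied by 1.86, the factor that brings the median ratio of those genes to 1, the members' median was -0.03, with 2 lower (Hspb8 and Dnaja1) and 2 higher (Dnajb1 and the entry listed as Hspa8). By that scaling 15.6% of annotated genes were lower and 39.8% higher, with a median of 0.46 over the 10582 genes then counted. The rescaled difference is given below beside each of the 10 genes, as a value relative to the other genes.

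**Figure D1:**
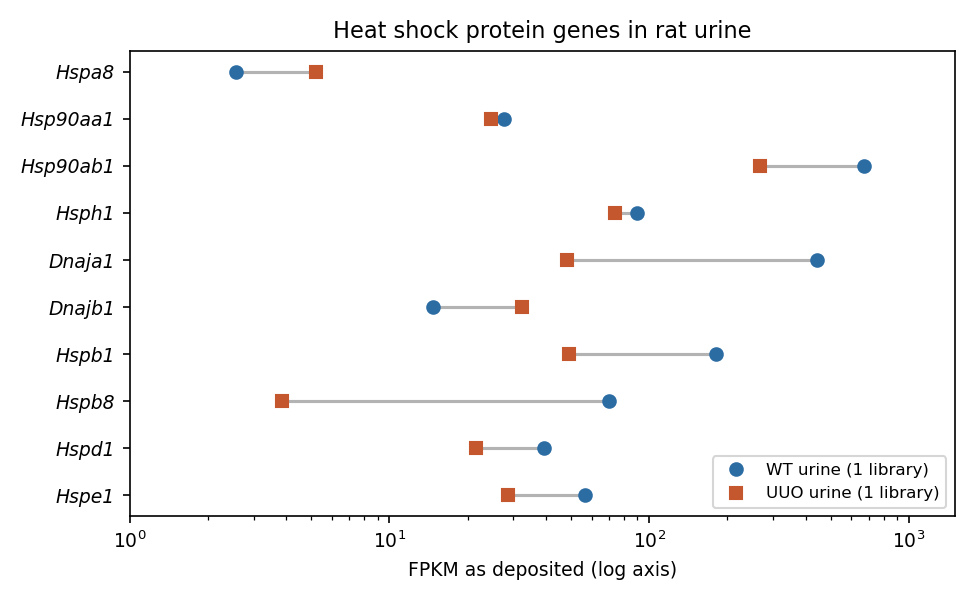
FPKM of the 10 heat shock protein genes in WT urine (circles) and UUO urine (squares), 1 library each, on a log axis; each grey line joins the values of 1 gene. Hspb8 and Dnaja1 have the longest lines, from 70.3 down to 3.87 and from 443 down to 48.2, while Dnajb1 and Hspa8 are the genes with the UUO value on the right.

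Cytosolic Hsp90 gave the most abundant transcript of the group. Hsp90ab1, the constantly made form (ID 301252, chromosome 9, 16706449 to 16715764), reached 669 FPKM in WT urine and 268 FPKM in UUO urine. It was the highest of the 10 in both libraries and ranked 41 among all annotated genes in WT and 75 in UUO urine. Its difference was -1.32 on the log2 scale, a 2.50-fold lower value, and -0.43 after rescaling by the median ratio. Hsp90aa1, the form that stress induces (ID 299331, chromosome 6, 144182003 to 144187629), reached 27.6 FPKM in WT urine and 24.6 FPKM in UUO urine, a difference of -0.16. After rescaling its difference was 0.71, so its direction depends on the scaling. At its locus the noncoding database entries NONRATG026206 and NONRATT048719 were listed at 8.75 and 8.73 FPKM in UUO urine, against 0.546 and 0.544 FPKM in WT urine. Values so alike may stand for the same reads, which a sum over the locus would then count more than once. With the FPKM of all entries at the locus added up as listed, Hsp90aa1 stood at 0.54, and this direction carries that limit. The ratio of the 2 forms within a library does not move with such scaling. Hsp90aa1 stood at 0.0412 of Hsp90ab1 in WT and at 0.0918 in UUO urine, a ratio 2.23 times higher in UUO urine. With FPKM summed over the loci the ratio was 3.69 times higher, with the limit given above for such sums.

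The 2 J-domain partners of Hsp70 differed in opposite directions. Dnaja1, which helps Hsp70 with newly made and imported proteins (ID 65028, chromosome 5, 61562252 to 61574780), reached 443 FPKM in WT urine and 48.2 FPKM in UUO urine. That is 9.20-fold lower, a difference of -3.17, and -2.29 after rescaling by the median ratio. Only 2.56% of the 9853 genes had a difference as low or lower. It ranked 73 among annotated genes in WT and 635 in UUO urine. The reads of this locus are divided among 8 entries, 2 of them annotated genes, and in UUO urine the Dnaja1 entry held 32.0% of their summed FPKM, against 98.8% in WT urine. The noncoding entry NONRATT042797 there was listed at 76.6 FPKM in UUO urine against 1.68 FPKM in WT urine. The entries of the locus added up to 448 FPKM in WT urine and 150.4 FPKM in UUO urine, a difference of -1.57. As deposited, Dnaja1 thus stayed lower by more than 2-fold but by much less. With locus sums for all annotated genes the median was -0.10 and 27.5% were lower. The locus sums were not rescaled, so whether this one stays past 2-fold after rescaling is not given.

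Dnajb1, a J-domain protein that stress induces strongly (ID 361384, chromosome 19, 35726333 to 35730075), reached 14.8 FPKM in WT urine and 32.3 FPKM in UUO urine. It was 2.19-fold higher, a difference of 1.08, with 1.95 after rescaling and 1.26 when summed over its locus. Its locus holds NONRATG014542 and NONRATT027214 at nearly the same FPKM (6.68 and 6.63 in WT, 14.3 and 14.0 in UUO urine). The locus sum of Dnajb1 may therefore count reads more than once, which also limits its locus ratio to Dnaja1 below. Of the 9853 genes 23.7% had a difference as high or higher, so the size was not unusual in this table. Among the 10 members Dnajb1 was the only one counted as higher as deposited, and its place among them moved from 9 in WT to 5 in UUO urine. The entry listed as Hspa8 had a plain ratio of 2.04 but, with 1 added to each FPKM, a difference of 0.81. Dnajb1 stood at 0.0334 of Dnaja1 in WT and at 0.671 in UUO urine, a 20.1-fold higher ratio, or 7.27-fold with FPKM summed over the loci. Hsph1, the Hsp110 protein that resets Hsp70 (ID 288444, chromosome 12, 8423545 to 8442481), reached 89.9 FPKM in WT urine and 73.8 FPKM in UUO urine, a difference of -0.28. Rescaling by the median ratio turned it to 0.60. Hsph1 was the fourth of the 10 by level in WT urine and the second in UUO urine.

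Hspa8, the constantly made cytosolic Hsp70, could not be read with confidence from this table. The entry under its ID (24468) lies on chromosome 6, from 44327953 to 44330078, while RefSeq places Hspa8 on chromosome 8 of GRCr8. It was the only 1 of the 10 listed on a chromosome other than that of GRCr8, which was so for 305 (1.87%) of the 16329 matched IDs. RefSeq names 33 pseudogenes of Hspa8, 23 of Hsp90ab1, 20 of Hspd1, 16 of Hsp90aa1, 4 of Dnaja1 and 1 of Hspe1, and reads can be shared with such copies. The entry was listed at 2.56 FPKM in WT urine and 5.23 FPKM in UUO urine, a difference of 0.81, and 1.59 after rescaling. If the transcript fills the 2125 bases listed, this is about 10.8 fragments in WT and 24.9 in UUO urine. These values cannot be assigned to the Hspa8 gene rather than to a copy of it. For the same reason the ratio of Hsph1 to this entry, 35.1 in WT and 14.1 in UUO urine, is given as listed only. Without the entry the median of the other 9 was -0.96, with 4 lower and 1 higher, and after rescaling by the median ratio -0.08, with 2 lower and 1 higher.

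The small heat shock proteins were both lower in UUO urine. Hspb8, which works with Bag3 to send damaged proteins to autophagy (ID 113906, chromosome 12, 47717627 to 47745292), reached 70.3 FPKM in WT urine and 3.87 FPKM in UUO urine. It was 18.2-fold lower, a difference of -3.87, and remained low at -3.12 after rescaling and -3.57 when summed over its locus. Among the 9853 genes 1.09% had a difference as low or lower. Its UUO value rests on about 9.46 fragments per kilobase of transcript, against 149 in WT urine. Hspb1, known as Hsp25 or Hsp27, which also guards actin filaments (ID 24471, chromosome 12, 25837072 to 25838733), reached 180.1 FPKM in WT urine and 49.2 FPKM in UUO urine. That is 3.66-fold lower, a difference of -1.85, with -0.97 after rescaling and -1.39 over the locus. At this locus too, NONRATG008178 and NONRATT015670 had nearly the same FPKM (11.2 and 11.0 in WT, 11.9 and 11.5 in UUO urine). The third-highest member in both libraries, Hspb1 kept its place while Hspb8 went from the fifth to the last, but in UUO urine Hspb1 and Dnaja1, at 49.2 and 48.2 FPKM, are too close to be ordered from 1 library. Hspb8 stood at 0.390 of Hspb1 in WT and at 0.0786 in UUO urine, a ratio 4.97 times higher in WT urine.

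The 2 subunits of the mitochondrial chaperonin differed together. Hspd1, also called Hsp60 (ID 63868, chromosome 9, 61361744 to 61372172), reached 39.4 FPKM in WT urine and 21.6 FPKM in UUO urine, a difference of -0.84. Hspe1, also called Hsp10 or Cpn10 (ID 25462, chromosome 9, 61372461 to 61375748), reached 56.5 FPKM in WT urine and 28.6 FPKM in UUO urine, a difference of -0.96. Neither passed 2-fold, and after rescaling they stood at 0.029 and -0.08, that is, at the middle of the genes detected in both libraries. Hspe1 ranked 1240 among annotated genes in WT and 1239 in UUO urine. The ratio of Hspd1 to Hspe1 was 0.697 in WT and 0.755 in UUO urine, the steadiest of the 5 ratios computed. The 2 genes are neighbours in the table, and their listed regions do not overlap.

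**Figure D2:**
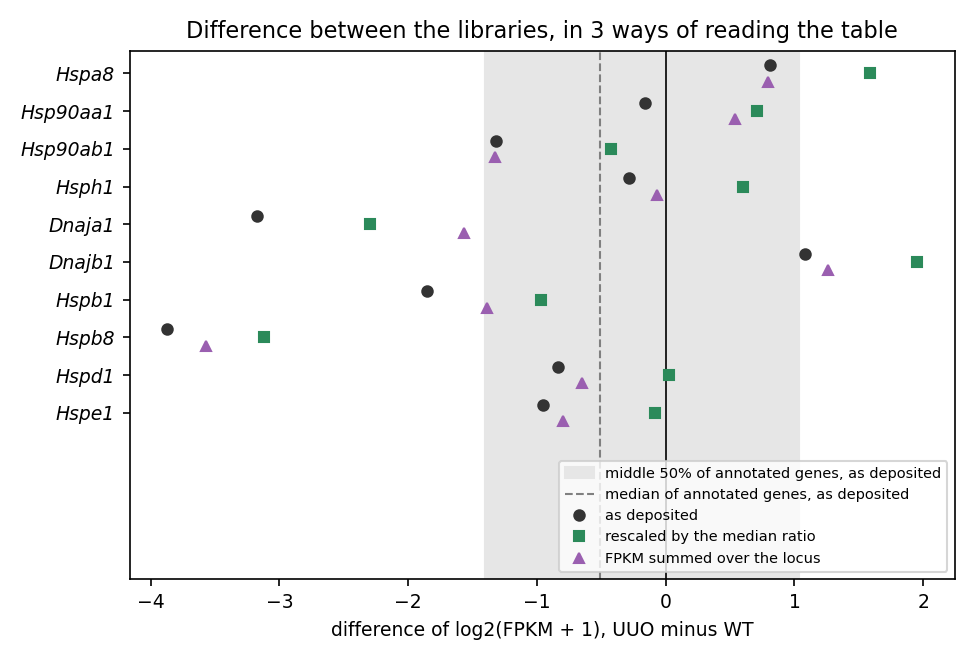
Difference of log2(FPKM + 1), UUO minus WT, of the 10 genes as deposited (circles), after rescaling by the median ratio (squares) and with FPKM summed over the locus (triangles). The grey band is the middle 50% and the dashed line the median (-0.51) of the 9853 annotated genes as deposited. Hspb8, Dnaja1 and Hspb1 lie left of the band as deposited, Dnajb1 lies just right of it, and Hsp90aa1, Hsph1 and Hspd1 cross 0 with rescaling.

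The 10 genes together held 1593 FPKM in WT urine and 555 FPKM in UUO urine, which is 0.472% of the FPKM of all annotated genes in WT and 0.205% in UUO urine. Haemoglobin genes are part of that total and were far higher in UUO urine. The make-up of the sum differed too. Hsp90ab1 held 42.0% of it in WT and 48.2% in UUO urine, Dnaja1 27.8% and 8.68%, Hsph1 5.65% and 13.3%, and Hspb8 4.41% and 0.697%. These shares do not move with the scaling of a library, but they move with the division of reads within a locus. With FPKM summed over the loci Dnaja1 held 25.4% in WT and 18.6% in UUO urine, and Hsph1 5.09% and 10.6%. Hsp90ab1 then held 45.3% and 39.4%, the opposite order to that of its gene entry. Pairs of noncoding entries with nearly the same FPKM, given above for Hsp90aa1, Dnajb1 and Hspb1, may be counted more than once in these sums.

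**Figure D3:**
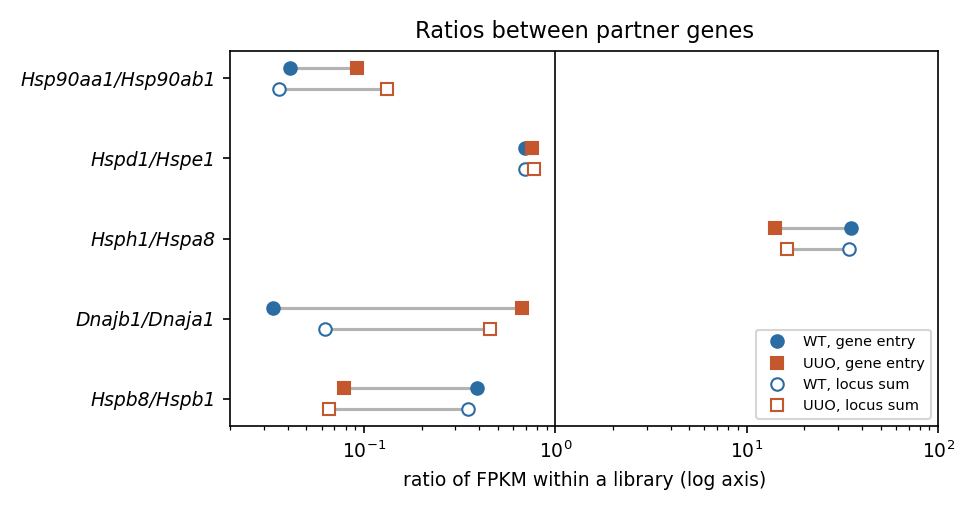
Ratio of FPKM between partner genes within each library, on a log axis, for the gene entries (filled) and with FPKM summed over the locus (open); circles are WT and squares UUO urine, 1 library each. Dnajb1/Dnaja1 differs most, from 0.0334 in WT to 0.671 in UUO urine, and Hspd1/Hspe1 least.

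Urine holds RNA of many cell types, and in such bulk samples fewer cells of a type and less RNA per cell cannot be told apart. The study's methods describe centrifugation of the urine, and whether cells were kept is not given in the sources used here. Markers of several cell types differed between the libraries. Their counts are as deposited and stand beside 36.5% lower and 25.7% higher among all annotated genes. All 8 red-cell genes examined were more than 2-fold higher in UUO urine, their summed FPKM being 3208 in WT and 88944 in UUO urine. Of 9 leukocyte genes 6 were higher, with sums of 79.6 in WT and 204 in UUO urine. Ptprc, Cd68, Itgam, S100a8, S100a9 and Cd3e were at 0 in WT urine, of which Cd3e was at 0 in UUO urine too. Cd74, which held most of the WT sum, stood at 70.0 FPKM in WT and 64.8 FPKM in UUO urine, and Cd14 at 2.05 and 1.31 FPKM. Of the 6 urothelium genes found, 3 were higher, with sums of 1137 and 1851. The basal keratin Krt5 was at 0 in WT urine, while Upk1b went the other way, at 216 FPKM in WT and 136 FPKM in UUO urine. Of 9 kidney tubule genes 3 were lower (Lrp2, Cubn and Slc34a1, of the proximal tubule) and 1 was higher (Calb1, of the distal tubule), with sums of 221 and 158 and none at 0. Aqp1, also made in the proximal tubule, stood at 26.7 FPKM in WT urine and 25.2 FPKM in UUO urine. The share of kidney tubule genes that were lower is near the background. Rescaling by the median ratio would multiply each UUO value by 1.86, so no direction is read from the tubule sums. The part of these cell types in the differences of the heat shock genes was not tested. FPKM values of short features fell on steps of 1 fragment, from which the total behind the scaling was estimated at 2115000 fragments for WT and 2446000 for UUO urine. At these totals the members' values stand for 5.42 to 1415 fragments per kilobase in WT and 9.46 to 655 in UUO urine, so that only Hspa8 in both libraries and Hspb8 in UUO urine rest on few fragments. Whether read copies from amplification were removed is not stated, and such numbers cover counting error only.

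The other listed genes of the chaperone network were mostly lower in UUO urine as deposited. Of a list of 76 such genes, 72 were found and 63 reached 1 FPKM in WT or UUO urine. Of these, 32 (50.8%) were lower by 2-fold and 4 (6.35%) higher, beside the 36.5% and 25.7% of all annotated genes, with a median of -1.06. Of the 9853 genes behind those shares 7218 reached 1 FPKM in both libraries, while only 2 of the 63 were at 0 in a library. The shares are therefore an unlike background for this list. The 7218 genes had a median of -0.81, and shares past 2-fold were not computed for them. After rescaling by the median ratio 16 of 66 were lower and 8 higher, beside 15.6% and 39.8%, and the median was -0.23. The 4 genes higher as deposited were Hspa13, Dnajb12, Hspb6 and Clpb.

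The co-chaperones of Hsp90 stood lowest. Of 10 genes 8 were lower and 0 higher, with a median of -1.83, and 5 were still lower after rescaling. The lowest was Fkbp5, an immunophilin that restrains steroid receptors and is itself induced by glucocorticoids, at 365 FPKM in WT urine against 5.68 FPKM in UUO urine (difference -5.78). Sugt1, an adaptor of Hsp90, was nearest to no difference at -0.14, with 18.9 and 17.0. The Hsp90 helpers Fkbp4 (212 in WT, 44.0 in UUO urine) and Ptges3 (197 and 36.1) were also lower, and these 2 were chosen after their values were seen.

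J-domain genes beyond Dnaja1 and Dnajb1 were mostly lower. Of 11 counted, 7 were lower and 1 higher, with a median of -1.48, and after rescaling 4 of 12 were lower and 2 higher. Dnajb2, a J-domain protein that sorts clients of Hsp70 to the proteasome, was lowest, at 252 FPKM in WT urine against 24.9 FPKM in UUO urine (difference -3.29). Dnajb12, which is anchored in the membrane of the endoplasmic reticulum, was highest, with 6.14 and 18.9 (difference 1.48). Of the 19 further J-domain genes counted outside the list, 5 were lower and 6 higher, with a median of -0.76. All 6 higher ones were listed at 0 in WT urine and at no more than 7.04 FPKM in UUO urine. Whether the whole family shares the direction of the list is therefore not read from these counts. Among nucleotide exchange factors and other Hsp70 helpers 4 of 9 were lower and 0 higher. Bag3, the partner of Hspb8, was the lowest of them, at 64.5 FPKM in WT urine against 15.7 FPKM in UUO urine (difference -1.97), and Bag6 stood at -0.11, with 48.7 and 45.01. After rescaling 1 of the 9 was lower.

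Small heat shock genes outside the 10 mostly stayed under the limit of 1 FPKM, which 2 of 7 reached. Cryab, or alpha B-crystallin, a relative of Hspb1 and Hspb8, reached 361 FPKM in WT urine and 38.3 FPKM in UUO urine (difference -3.20), which lies between those of its 2 relatives. Hspb6 was listed at 0 in WT and at 1.92 in UUO urine. The inducible Hsp70 gene Hspa1a was listed at 0 in WT and 0.171 in UUO urine, in a region that holds 22 annotated genes, and no direction is read from it. Of the 6 other Hsp70 and Hsp110 genes counted, 2 were lower, led by Hspa14 with 48.3 in WT and 9.86 in UUO urine (difference -2.18), and 1 was higher, Hspa13, listed at 0 in WT and at 1.15 in UUO urine.

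Of the 4 stress factors 2 were lower and 0 higher. Hsf1, the main activator of heat shock genes, reached 19.9 FPKM in WT urine and 17.1 FPKM in UUO urine (difference -0.21). Hsbp1, which binds Hsf1, was nearest to 0 at -0.17, with 47.98 and 42.5, and Hsf4 was lowest at -2.87, with 7.84 and 0.211. In the mitochondrial class 3 of 9 were lower and 1 higher, and after rescaling 0 were lower and 2 higher. Trap1, the mitochondrial Hsp90, was the lowest, with 42.1 in WT and 17.6 in UUO urine (difference -1.22). Summed over its locus, which holds 2 annotated genes, the difference was -0.60. Clpb was the highest, with 2.41 and 11.2 (difference 1.84), but only 0.17 when FPKM was summed over its locus. Of the 8 subunits of TRiC, the cytosolic chaperonin, 4 were lower and 0 higher, from Cct6a at -2.30 (56.4 in WT, 10.7 in UUO urine) to Cct4 at 0.06 (52.2 and 54.3), and after rescaling 1 was lower. Of 4 prefoldin subunits, which hand actin and tubulin to TRiC, 1 was lower, Pfdn6 at -2.48 (40.1 and 6.34), and Pfdn1 was nearest to 0 at -0.37 (55.7 and 42.9). Rescaling by the median ratio turned the genes nearest to 0 upward, Hsf1 to 0.65, Hsbp1 to 0.71, Sugt1 to 0.72, Bag6 to 0.77 and Pfdn1 to 0.51, so that no direction is read for them. The counts of these classes stand beside 36.5% lower and 25.7% higher among all annotated genes as deposited, and 15.6% and 39.8% after rescaling.

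Chaperones and stress genes of the endoplasmic reticulum, which answer to another stress pathway, had a higher median than the wider list. Of 16 genes 5 were lower and 3 higher, with a median of -0.45, beside 36.5% and 25.7% of all annotated genes. The median was -0.51 over all annotated genes counted and -0.81 over those with an FPKM of at least 1 in both libraries. After rescaling by the median ratio 3 were lower and 6 higher, with a median of 0.43, so that the sign of the median depends on the scaling. Ddit3, or CHOP, a factor of prolonged stress there, reached 7.59 FPKM in WT urine and 63.6 FPKM in UUO urine (difference 2.91), and 0.73 when summed over its locus, which holds 2 annotated genes. Atf4, its activator, was lowest, at 904 FPKM in WT urine against 111 FPKM in UUO urine (difference -3.02). The difference between this list and the cytosolic one was not tested.

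**Figure D4:**
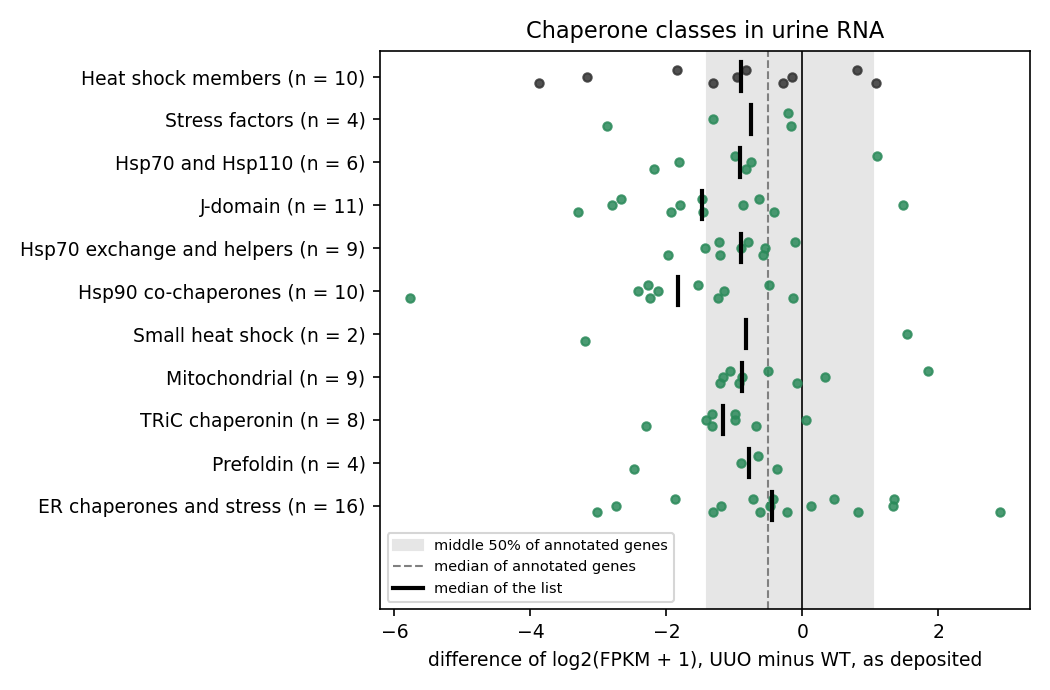
Difference of log2(FPKM + 1), UUO minus WT, as deposited, of the 10 heat shock genes (dark points) and of the chaperone classes (green points, 1 per gene that reached 1 FPKM in WT or UUO urine); black bars are medians of a list, and the grey band and dashed line are the middle 50% and the median of the 9853 annotated genes. Hsp90 co-chaperones have the lowest median at -1.83, with Fkbp5 at -5.78, and the endoplasmic reticulum list the highest at -0.45.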

How the data were processed

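Urine RNA of 1 WT and 1 UUO library was analysed. Per the labels and the study's methods, the authors aligned read pairs with TopHat2 2.0.9 on a Bowtie2 2.0.6 index, assembled transcripts with Cufflinks 2.1.1 and Scripture, and compared libraries with Cuffdiff 2.1.1. The submitters' notes name build rn5. The deposited values are FPKM, 1 per feature and library; the table also holds the authors' fold changes, p-values and q-values, which were not used. The authors' methods describe ribosomal RNA removal and strand-specific libraries for kidney RNA.

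Symbols came from a RefSeq table of GRCr8, which matched 16329 of 16484 number-only IDs (99.1%). Differences were computed as log2(FPKM + 1) with Python 3.11.15 and pandas 2.3.3, and counted at 2-fold among genes that reached 1 FPKM in WT or UUO urine. With 1 library per group no test was run. Alternatives were a pseudocount of 0.1 or 10, no filter, FPKM of at least 5, a 4-fold limit, FPKM summed over all entries of a locus, and rescaling of UUO to equal sums, the median ratio or the 75th percentile. Normalising totals were fitted on assembled features alone at their locus, with spans of 400 to 1200 bases. There 93.5% of 186 WT values and 99.5% of 3530 UUO values came within 0.1 of a whole number of fragments. The fit and the counting were tested on simulated data. The fit searched a set range of totals and the simulated total lay inside it, so totals outside that range were not tested. The paper describes more reads per sample than these totals, and that difference was not examined. The named genes were all 10 members and, from each class, the gene with the greatest and the gene with the least difference among those counted. Hsf1, Hspa1a, Fkbp4, Ptges3, the cell-type markers and the J-domain genes outside the lists are named outside this rule, with their values known. Members and lists were chosen with earlier results of these data known. Of the wider list, Hspa1b, Clpp, Vbp1 and Pfdn4 were not found by symbol and are not analysed here.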

Additional observations from a re-analysis of the deposited data

How the results depend on the processing

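No paired analysis was possible because WT and UUO are 1 library each. Alternatives gave 117 further values for 25 results, of which 80 kept their direction and their side of 2-fold or stayed within 1.5 times. The members' median stayed below 0 throughout. The number of members higher in UUO urine was 2 with a pseudocount of 0.1, equal sums, the median ratio or the 75th percentile, and 0 with a pseudocount of 10 or a 4-fold limit. The number lower was 3 with equal sums or the 75th percentile, and 2 with the median ratio or a 4-fold limit. Hsp90ab1 came inside 2-fold under each rescaling, at -0.69 with equal sums, -0.43 with the median ratio and -0.59 with the 75th percentile. Hspb1 came inside it at -0.97 with the median ratio. In the wider list the number higher was 0 with a pseudocount of 10 or a 4-fold limit, 2 at FPKM of at least 5, 7 with equal sums and 8 with the median ratio or the 75th percentile. The number lower was 19 with a pseudocount of 10, 17 with equal sums or the 75th percentile, 16 with the median ratio and 13 with a 4-fold limit. Each rescaling raises every UUO value by 1 factor. Hsp90aa1 turned to 0.45 with equal sums, 0.71 with the median ratio, 0.55 with the 75th percentile and 0.54 over its locus, Hsph1 to 0.34, 0.60 and 0.44 under the same 3 rescalings, and Hspd1 to 0.029 with the median ratio. Over their loci Dnajb1 stood at 0.0627 of Dnaja1 in WT urine. Sums over a locus may count reads more than once where its entries share them. Leaving out Hspa8 was chosen after the data were seen and left 4 lower and 1 higher as deposited. Low depth limits Hspa8 and, in UUO urine, Hspb8.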

Other observations

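The table held 25 further J-domain genes of the Dnaja, Dnajb and Dnajc families that are in none of the lists above, and they were looked at after the other values had been seen. Of the 19 with an FPKM of at least 1 in either library, 5 were lower and 6 higher by 2-fold, with a median of -0.76, beside 36.5% lower and 25.7% higher among all annotated genes. All 6 higher ones (Dnajc12, Dnajc16, Dnajc21, Dnajc18, Dnajc24 and Dnajc4) were listed at 0 in WT urine and at an FPKM of 1.06 to 7.04 in UUO urine. On the other side, Dnajb3 was listed at 0 in UUO urine with an FPKM of 137 in WT urine. Its locus holds 9 annotated genes and 26 entries in all, so its value depends on how reads were divided there. Dnajc28 (15.1 in WT, 1.79 in UUO urine) and Dnajc11, a protein of the mitochondrial membranes (64.8 and 12.3), were the next lowest.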
